A study of Arabidopsis thaliana with 24 samples.

Results

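The response of card1-1 seedlings of Arabidopsis thaliana to DMBQ (2,6-dimethoxy-1,4-benzoquinone) was measured in 8 of the 24 RNA sequencing libraries of the study, chosen by genotype and agent as the sample labels give them. Of these, 4 libraries came from seedlings given 5 µM DMBQ and 4 from mock seedlings given the same volume of its solvent DMSO, in both cases for 10 min. All 8 came from whole Col-0 seedlings grown for 7 days in liquid medium. card1-1 was made in a line expressing aequorin, a photoprotein that reports calcium, so both groups carried the reporter. WT below means that line without the mutation, and card1-2 the other mutant made in it, each with 4 mock and 4 DMBQ libraries treated in the same way. The labels describe neither lesion, nor do they say whether each replicate was its own culture. The p-values therefore refer to the spread among these samples, which may be partly technical.

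DMBQ is a redox-active quinone that can arise from phenolic cell wall material and that parasitic plants use as a sign of a host root. CARD1, also named HPCA1, is a leucine-rich repeat receptor kinase of the plasma membrane known for calcium signalling triggered by quinones and by hydrogen peroxide. Early stress signalling in plants typically passes through calcium sensors and MAP kinases to zinc finger, ERF and WRKY transcription factors, whose own transcripts rise within minutes. The comparison asks which transcripts still changed within 10 min of DMBQ in a mutant of this receptor.

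Gene counts per library ran from 2640441 to 4918390 in mock and from 2328009 to 2736743 in DMBQ. Non-unique alignments made up 25.05% ± 6.16 (SD, n = 4, 17.3% to 32.3%) in mock and 55.95% ± 8.06 (48.3% to 66.5%) in DMBQ, with no overlap between the groups. A two-sided exact permutation test gave p = 0.0286 for that share, the smallest this design allows, and 0.0714 after adjustment over 5 library measures. Mock replicate 1 stood apart from the other mock libraries. Comparing counts by chi-square gave 23.65 to 27.3 per degree of freedom in its 3 pairs and 5.45 to 8.00 in the other 3. The pairs of DMBQ libraries gave 7.95 to 14.14. This measure grows with depth, and mock replicate 1 was the deepest of the 8 libraries (4918390 gene counts). Photosystem transcripts of the shoot and root marker transcripts were detected in all 8 libraries. The summed seed storage markers were 27.8 CPM in DMBQ replicate 1 and 0 to 2.84 CPM in the other 7 libraries, and none of 11 was expressed enough to be tested.

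CARD1 itself (AT5G49760, chr5:20216332-20221382, plus strand, TAIR10.1) had normalised read counts of 48.5, 60.7, 49.3 and 57.6 CPM in mock replicates 1 to 4 and 93.5, 58.0, 57.2 and 55.3 CPM in DMBQ replicates 1 to 4. DMBQ replicate 1 was high, and the groups overlapped. The level went from 54.0 ± 6.08 to 66.0 ± 18.4 CPM (SD, n = 4) with a log2 fold change of 0.29 (SE 0.22, edgeR quasi-likelihood adjusted p = 0.58), which did not pass the test. Normalised read counts are given as CPM, that is, counts scaled to a common library size with the trimmed mean of M-values (TMM). Without a description of the lesion, the transcript level does not check the genotype label. Of the 8 members of the CARD1 clade of receptor kinases 4 were tested, and none passed (log2 fold changes −0.27 to 0.29).

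With DMBQ, genes of early stress signalling such as CAF1a, ERF5, WRKY40 and PBP1 rose in card1-1, together with 51 of 330 tested ribosomal protein genes and 4 of 39 photosystem genes. Among the genes that fell were 4 of 11 for cellulose synthesis, the myosin gene XIH and the pentatricopeptide repeat gene MRL1. In a fit with offsets for GC content and exonic length, 3 of the 330 ribosomal protein genes were called in either direction. None of the photosystem or cellulose synthesis genes was called there. CAF1a, ERF5, WRKY40, PBP1 and MRL1 kept their calls with the offsets, and XIH did not. edgeR's quasi-likelihood test with an adjusted p threshold of 0.05 called 288 of 15559 genes (1.85%), of which 182 rose (1.17% of those tested) and 106 fell (0.681%). Of those that rose, 77 did so by at least 2-fold, and 48 of the fallers changed by as much. No overlap between the groups was seen for 178 of the 182 and for all 106. Without any condition on the test, the groups did not overlap for 5.55% of all genes tested in the upward direction and for 5.44% in the downward direction. Of all 15559 genes tested, 7782 lay above 0. Counts for the gene lists below are to be read beside these shares. The counts rested on single libraries: 23 genes were called without DMBQ replicate 1, 42 without replicate 3, 104 without replicate 4 and 274 without replicate 2. Without mock replicates 1, 2, 3 and 4 they were 231, 90, 133 and 202. Across these 8 fits, 16 of the 182 and 6 of the 106 were called every time. The plot of calls by setting sets these counts beside the other alternatives.

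**Figure D1:**
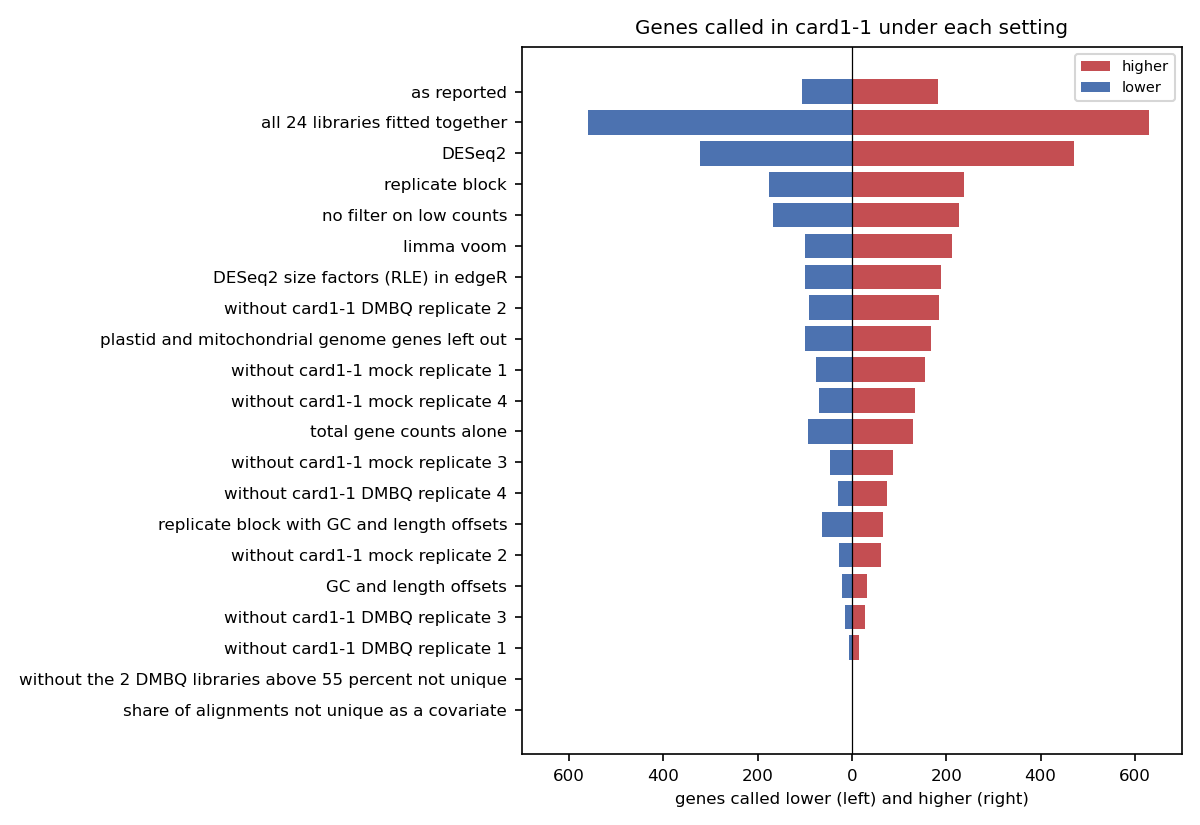
Number of genes called higher (red, to the right) and lower (blue, to the left) in card1-1 DMBQ against card1-1 mock under each setting, 1 bar pair a setting, with no error bars because each is a single count. The fit as reported gave 182 and 106, leaving out DMBQ replicate 1 gave 16 and 7, and adding the non-unique share as a covariate left 0 in both directions.

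CAF1a (AT3G44260, chr3:15952008-15953346, minus strand), which encodes a deadenylase that shortens mRNA tails, had 11.8, 14.2, 19.3 and 14.6 CPM in mock replicates 1 to 4 and 102, 42.2, 122 and 150.5 CPM in DMBQ replicates 1 to 4. All 4 DMBQ libraries lay above all 4 mock libraries, with DMBQ replicate 2 the lowest of them. The mean levels, 14.9 ± 3.12 and 104 ± 45.9 CPM (SD, n = 4), gave a log2 fold change of 2.81 (SE 0.32, edgeR adjusted p = 0.000439), and the call held in 8 of 8 fits that each left out 1 library. SZF1, a tandem CCCH zinc finger gene of salt stress, rose by 1.32 with overlapping groups, a call that held in 2 of 8 (adjusted p = 0.132 without mock replicate 1). These were the 2 risers among 8 tested genes of mRNA turnover (median log2 fold change 0.55, against 0.00 over all genes tested); CZF1 had 1.17 and did not pass (adjusted p = 0.0663).

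Ethylene response factors of group IX, activators of defence genes, followed. Of 6 tested, 3 rose and all lay above 0 (median 1.72). ERF5 (AT5G47230, chr5:19179881-19181182, plus strand) had 10.2, 6.07, 16.7 and 11.2 CPM in mock replicates 1 to 4 and 51.2, 39.8, 92.4 and 58.4 CPM in DMBQ replicates 1 to 4. The groups were well apart, and DMBQ replicate 3 was the highest library. Its mean went from 11.1 ± 4.36 to 60.4 ± 22.6 CPM (log2 fold change 2.46, SE 0.33, edgeR adjusted p = 0.00221; call held in 8 of 8 fits). ERF104 rose by 2.26 and ERF105 by 1.71, each held in 3 of 8 (ERF104: adjusted p = 0.108 without mock replicate 4; ERF105: adjusted p = 0.0813 without DMBQ replicate 3). ERF2 had 1.73 and did not pass (adjusted p = 0.0536). Between 1 and 5 of the 6 were called when 1 library was left out.

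Among 6 tested C2H2 zinc finger genes and 20 WRKY genes, the test passed for 1 each. WRKY40 (AT1G80840, chr1:30383561-30385499, plus strand), a repressor that tunes pathogen and abscisic acid responses, had 6.03, 3.18, 8.89 and 8.51 CPM in mock replicates 1 to 4 and 31.2, 28.0, 33.5 and 30.5 CPM in DMBQ replicates 1 to 4. The 4 DMBQ libraries lay close together and above every mock library. WRKY40 rose by 2.21 (SE 0.35, edgeR adjusted p = 0.00732), held in 8 of 8 (adjusted p = 0.0484 without DMBQ replicate 3 at the highest). The other 19 WRKY genes tested did not pass, and the list median was 0.12: WRKY33, a regulator of camalexin synthesis, had 0.72 (adjusted p = 0.46) and WRKY18 0.64 (0.288).

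ZAT12 (AT5G59820), a C2H2 zinc finger protein of oxidative stress responses, had 3.71, 4.33, 5.93 and 4.94 CPM in mock replicates 1 to 4 and 24.5, 10.14, 31.1 and 25.2 CPM in DMBQ replicates 1 to 4. DMBQ replicate 2 was the lowest treated library but still above the mock group. ZAT12 rose by 2.27 (SE 0.41, edgeR adjusted p = 0.0122; held in 6 of 8, adjusted p = 0.0608 without DMBQ replicate 1). ZAT10, a related repressor, missed the threshold at 2.46 (adjusted p = 0.0746), and the 6 genes of this list tested had a median of 1.38.

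Genes of calcium-binding proteins were among the risers. PBP1 (AT5G54490, chr5:22121102-22122122, plus strand), which binds calcium and the auxin transport kinase PINOID, had 1.16, 1.73, 3.70 and 3.29 CPM in mock replicates 1 to 4 and 32.7, 7.30, 22.1 and 16.8 CPM in DMBQ replicates 1 to 4. DMBQ replicate 2 was again the lowest treated library, and the groups did not overlap. PBP1 rose by 3.01, the largest of the nuclear genes called (SE 0.54, edgeR adjusted p = 0.0122; held in 6 of 8, adjusted p = 0.069 without DMBQ replicate 1). The calmodulin-like gene CML24, also called TCH2 for its response to touch, had 128, 90.7, 107 and 74.9 CPM in mock replicates 1 to 4 and 208, 139.5, 259 and 195 CPM in DMBQ replicates 1 to 4. Its groups did not overlap, and it rose by 1.00 (adjusted p = 0.0225), a call held in 2 of 8 (adjusted p = 0.0867 without DMBQ replicate 1). AT5G39670, an EF-hand protein gene, rose by 2.08 (held in 1 of 8, adjusted p = 0.101 without DMBQ replicate 3). In all, 3 of 9 tested calmodulin-like and touch genes rose, all 9 lay above 0, and the median was 1.00; leaving out 1 library gave 0 to 5 called. The EF-hand gene AT4G27280, in no list, rose by 2.38 (held in 7 of 8, adjusted p = 0.0503 without DMBQ replicate 1).

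Of 8 calcium pumps and calcium-dependent kinases none passed, with 3 above 0 and a median of −0.36. MKK9, a MAP kinase kinase upstream of MPK3 and MPK6, rose from 3.63 ± 0.696 to 19.1 ± 10.9 CPM (log2 fold change 2.39, edgeR adjusted p = 0.016; held in 5 of 8, adjusted p = 0.0813 without DMBQ replicate 3). It was the only riser of 8 tested genes of the MAP kinase cascade, which all lay above 0 (median 0.62). DIC2, a mitochondrial dicarboxylate carrier, had 40.6, 28.0, 79.3 and 23.1 CPM in mock replicates 1 to 4 and 162, 113, 293 and 238 CPM in DMBQ replicates 1 to 4. The 4 DMBQ libraries lay above the mock group, in which replicate 3 was the highest. DIC2 rose by 2.25 (SE 0.41, adjusted p = 0.0278), held in 3 of 8 (adjusted p = 0.105 without mock replicate 1).

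The remaining risers named by the rule were AT1G02816, encoding a DUF538 protein, at 2.48, the P-type cyclin gene CYCP3;2 at 2.43 and AT5G66650, annotated as a calcium uniporter, at 2.169. AT1G02816 lost its call in each of the 8 fits without 1 library (adjusted p = 0.108 without mock replicate 2), CYCP3;2 held in 6 of 8 (adjusted p = 0.0552 without DMBQ replicate 1) and AT5G66650 in 2 of 8 (adjusted p = 0.119 without DMBQ replicate 3). HSFA8, a heat shock factor, rose by 1.24 (held in 2 of 8, adjusted p = 0.105 without mock replicate 2) and was the only riser of 17 tested heat shock factors and chaperones (median 0.07).

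The plot of 12 genes by library shows where single libraries differ. In the plot of gene lists, DMBQ replicate 2 had the lowest median of the 4 DMBQ libraries for the C2H2 factors (−0.63, against 1.04, 2.402 and 2.102 in replicates 1, 3 and 4 on the log2 scale), the group IX ERF factors (0.90, against 1.73, 2.35 and 1.80) and the calmodulin-like genes (0.08, against 1.198, 1.25 and 1.03). It had the lowest share of alignments not unique among the DMBQ libraries, 48.3%. Replicate 3, with the highest median for each of these lists, had the next lowest share, 51.3%. The part of that share in these medians was not tested. Over the fits that left out 1 library, the fitted C2H2 median ran from 0.94 to 2.01.

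**Figure D2:**
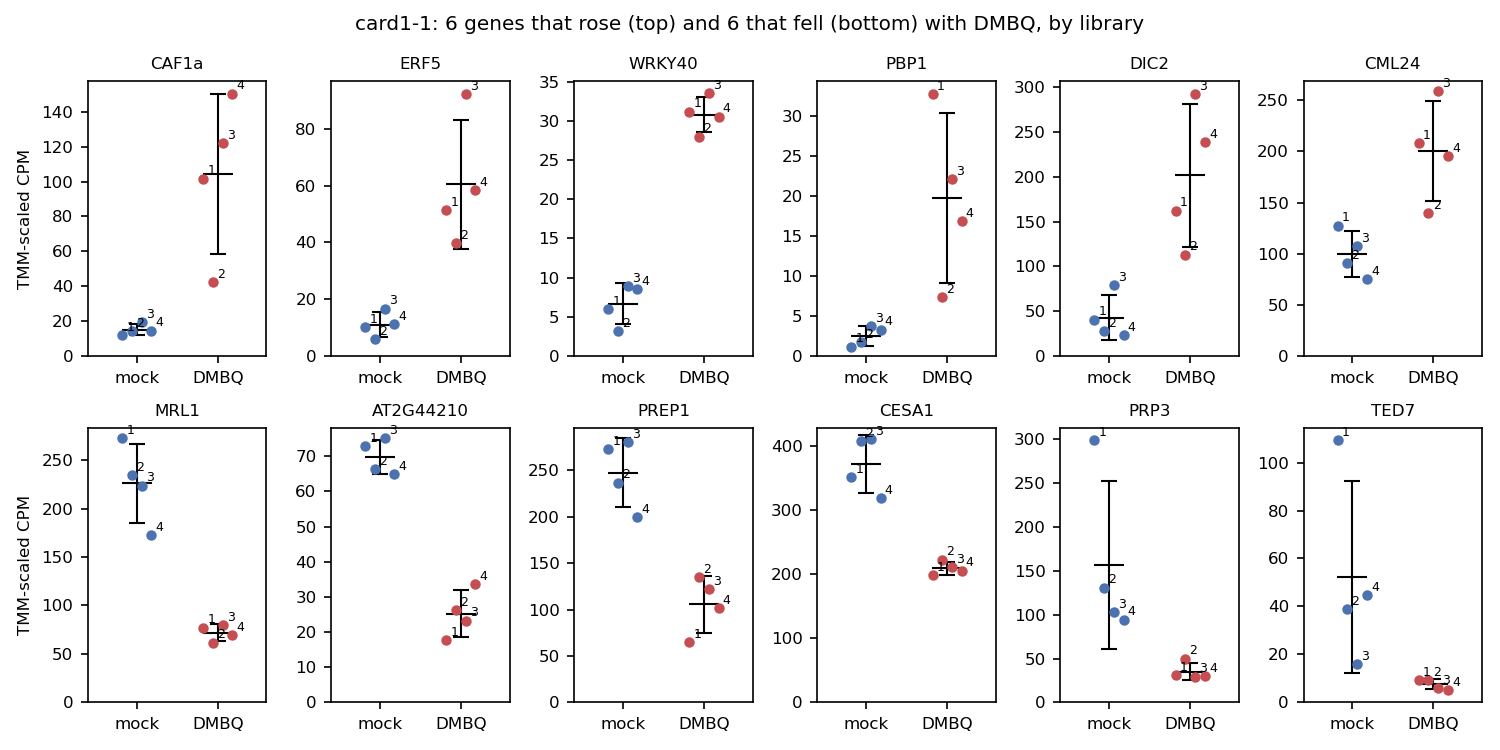
Normalised read counts (TMM-scaled CPM, linear axes from 0) of 6 genes that rose (top row) and 6 that fell (bottom row) in card1-1, with a numbered point for each replicate of mock (blue) and DMBQ (red); bars give the mean and SD of 4 libraries. The groups do not overlap in any panel; CAF1a ran from 42.2 to 150.5 CPM in DMBQ, and PRP3 and TED7 were highest in mock replicate 1.

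**Figure D3:**
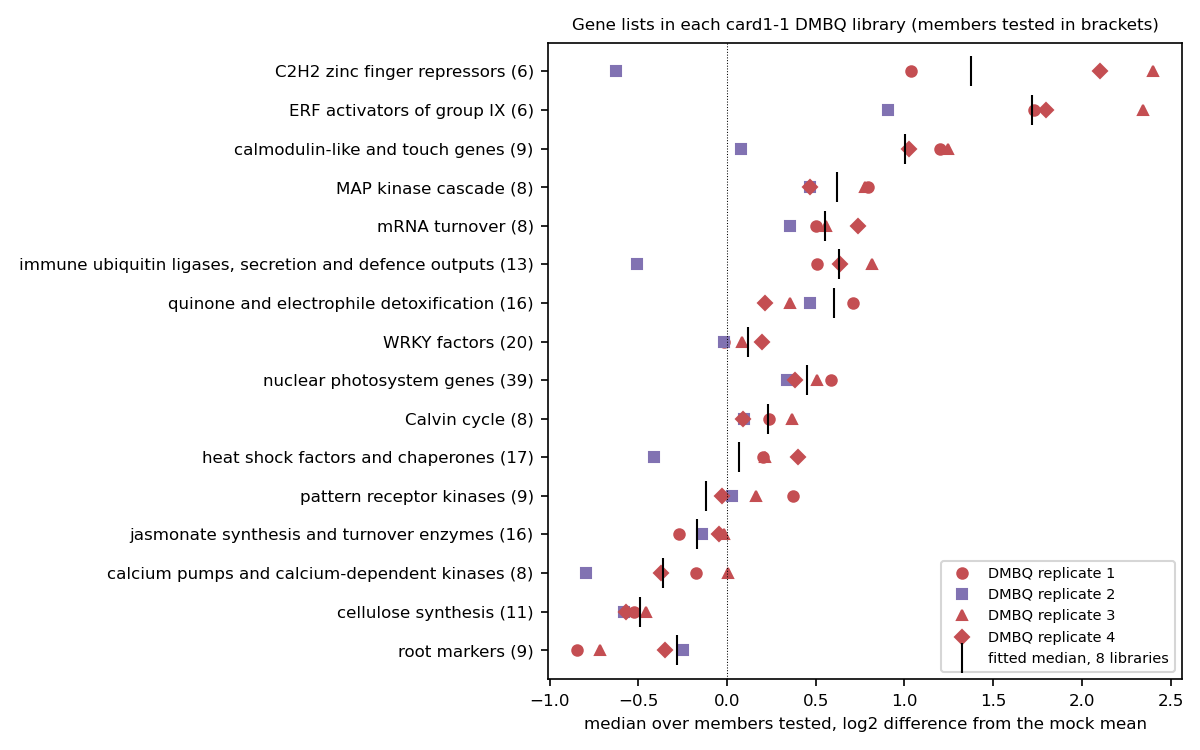
Median over the tested members of each gene list (rows, members tested in brackets) of the log2 difference between a card1-1 DMBQ library and the mean of the 4 mock libraries, with 1 symbol for each of the 4 DMBQ libraries; replicate 2 is purple and the black tick is the median of the fitted log2 fold changes. Replicate 2 lies lowest for the C2H2, ERF and calmodulin-like lists, and the cellulose synthesis list is below 0 in all 4 libraries, from −0.46 to −0.58.

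Several stress lists held no riser. In 14 lists with 102 tested members edgeR called none; 14 of these members were higher and 9 lower at an unadjusted p under 0.05, and DESeq2 called 6 higher and 2 lower. That is 22.5% at an unadjusted p under 0.05, against 15.8% of all genes tested. None of 16 quinone and electrophile detoxification genes passed, 13 lay above 0 and the median was 0.60; the glutathione transferase gene GSTU19 had 0.65 (adjusted p = 0.0709) and the quinone reductase gene FQR1 0.61 (0.126). Of 9 genes for peroxide and superoxide scavenging none passed (median 0.29). None of 9 jasmonate repressors with MYC2 (median 0.13), 7 ethylene synthesis genes (0.21), 7 abscisic acid genes (0.37), 6 salicylic acid genes (0.27), 3 group VIII ERF repressors (0.36), 3 CBF, DREB and other stress ERF factors (0.30), 5 early auxin genes (0.25), 12 clock genes (−0.21) or 4 malectin-like receptor kinases (−0.39) passed either. Of 9 pattern receptor kinases none passed (median −0.12). Of 16 genes for jasmonate synthesis and turnover 1 fell and none rose (median −0.17): AOC4, an allene oxide cyclase, at −1.13 (held in 1 of 8, adjusted p = 0.13 without mock replicate 2). Of 13 immune ubiquitin ligase, secretion and defence genes 1 fell and none rose, with a median of 0.63. It was RBOHF, which encodes an NADPH oxidase that makes superoxide, at −1.20 (held in 2 of 8, adjusted p = 0.12 without DMBQ replicate 1).

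The 250 bases before the annotated transcript start of 4 of the risers are shown. ERF5 and WRKY40 were chosen because they were called whichever library was left out. DIC2 and CML24 were chosen because they carry the rapid stress response element, so its presence in them is not a result. Letters are from the RefSeq TAIR10.1 genome, 5′ to 3′ on the strand of the gene, with matches to TTGAC (the W-box core bound by WRKY factors), CGCGTT (the core of the rapid stress response element, bound by CAMTA calmodulin-binding factors) or GCCGCC (the GCC box bound by ERF factors) on either strand in capitals.
ERF5, chr5:19179631-19179880, plus strand: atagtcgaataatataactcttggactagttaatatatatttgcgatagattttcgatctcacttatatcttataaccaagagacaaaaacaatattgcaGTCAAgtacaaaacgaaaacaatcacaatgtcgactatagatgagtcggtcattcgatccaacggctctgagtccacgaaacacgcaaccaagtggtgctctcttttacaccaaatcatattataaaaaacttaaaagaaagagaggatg
WRKY40, chr1:30383311-30383560, plus strand: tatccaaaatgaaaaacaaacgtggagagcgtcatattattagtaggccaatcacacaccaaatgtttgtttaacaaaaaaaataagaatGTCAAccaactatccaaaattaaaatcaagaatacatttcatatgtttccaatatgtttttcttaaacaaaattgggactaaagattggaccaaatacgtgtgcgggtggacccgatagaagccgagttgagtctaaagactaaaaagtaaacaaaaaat
DIC2, chr4:12686209-12686458, plus strand: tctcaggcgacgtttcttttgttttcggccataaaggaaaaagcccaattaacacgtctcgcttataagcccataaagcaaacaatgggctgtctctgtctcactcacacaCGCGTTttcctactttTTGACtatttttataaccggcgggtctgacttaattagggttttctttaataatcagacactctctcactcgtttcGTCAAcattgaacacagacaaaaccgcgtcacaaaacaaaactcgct
CML24, chr5:14999620-14999869, minus strand: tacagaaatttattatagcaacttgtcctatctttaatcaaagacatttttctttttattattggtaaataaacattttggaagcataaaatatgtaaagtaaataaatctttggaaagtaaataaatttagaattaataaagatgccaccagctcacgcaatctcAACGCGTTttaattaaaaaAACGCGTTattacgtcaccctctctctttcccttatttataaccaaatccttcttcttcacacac

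ERF5 and WRKY40 each had 1 match to TTGAC and none to the other motifs in this stretch, DIC2 had 2 to TTGAC and 1 to CGCGTT, and CML24 had 4 to CGCGTT, in a pair of AACGCGTT copies that read alike on both strands. In windows from 250 bases before to 50 after the start, TTGAC occurred in 48.0% of the 173 risers with a window, 53.0% of the 100 fallers and 50.4% of 15467 genes tested. CGCGTT occurred in 7.51% of the risers, 6.0% of the fallers and 3.72% of all genes tested, and GCCGCC in 3.47%, 3.00% and 2.64%. Among the 20 risers also raised in WT, 15 held TTGAC (75.0%), 4 CGCGTT (20.0%) and 1 GCCGCC (5.0%). A match is a description of letters and not a binding site.

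The risers fell into sets of unlike size when WT was set beside them. In a fit of all 24 libraries, 180 genes rose in WT (1.01% of 17734 tested). Of these, 160 were tested in card1-1, 143 lay above 0 there and 20 were called higher, which is 11.1% of the WT list and 10.99% of the card1-1 list. These card1-1 calls come from its own 8 libraries; in the 24-library fit 59 of the 629 card1-1 risers were also raised in WT, 32.8% of the WT list and 9.38% of the card1-1 list. The number shared depended on the fit: it was 44 with DESeq2, and leaving out 1 library moved it from 4 (without DMBQ replicate 1) to 44 (without replicate 2). The 20 of the 8-library fit had a median log2 fold change of 2.12 in card1-1 and include CAF1a (2.81 in card1-1, 3.39 in WT and 2.85 in card1-2), ERF5 (2.46, 3.21 and 2.58), WRKY40 (2.21, 3.58 and 2.86) and PBP1 (3.01, 2.44 and 2.47). RDUF1, a RING ubiquitin ligase of drought responses picked after its values were seen, was 1.67, 2.73 and 2.32, and its call in card1-1 held in all 8 fits that left out 1 library. No WT riser was called lower in card1-1. The other 162 risers of that fit were not called in WT and had a median of 0.93. Of all 182 risers, 159 lay above 0 in WT (median 0.28) and 171 in card1-2 (median 0.38). Over the 15559 genes tested, 7516 lay above 0 in WT and 8030 in card1-2. The response difference from WT was called for 1 of the 182. In card1-2, where 190 genes were called higher (1.07%), 43 of the 182 were among them.

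The 162 risers not called in WT had short transcripts on average. Their median exonic length was 992 bases, against 1364 for the 20 shared with WT and 1854 for all genes tested; the 106 fallers had a median of 3159. In the shortest quintile of nuclear genes by exonic length (77 to 1250 bases) 124 of 3095 rose (4.01%) and 5 fell (0.162%), with a median log2 fold change of 0.27. In the longest quintile (2692 to 16614 bases) 4 of 3094 rose (0.129%) and 67 fell (2.165%), with a median of −0.25. The medians of these quintiles were 0.06 and −0.07 in WT, and 0.25 and −0.22 in card1-2. By GC content the quintiles had medians between −0.04 and 0.06. Relative to the mean of the 8 libraries, the median of the shortest quintile was −0.11 to −0.14 in mock replicates 1 to 3, close to 0 in mock replicate 4 and from 0.11 to 0.24 in the DMBQ libraries. The share of alignments not unique moved with the same groups, and its part in the shift was not tested. In a fit with offsets for GC content and exonic length, 32 genes rose and 22 fell. Among them were 12 of the 20 risers shared with WT, 17 of the other 162 and 19 of the 106 fallers. ZAT12, CML24, MKK9, AT4G27280, CYCP3;2 and AT5G66650 kept their calls there. ERF104, ERF105, DIC2, SZF1, HSFA8, AT5G39670, AT1G02816, AOC4 and RBOHF lost theirs. Of the genes named below, RBCS1A, RBCS1B, RBCS3B, PRK, CSLD5 and MYB4R1 also lost their calls with these offsets.

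**Figure D4:**
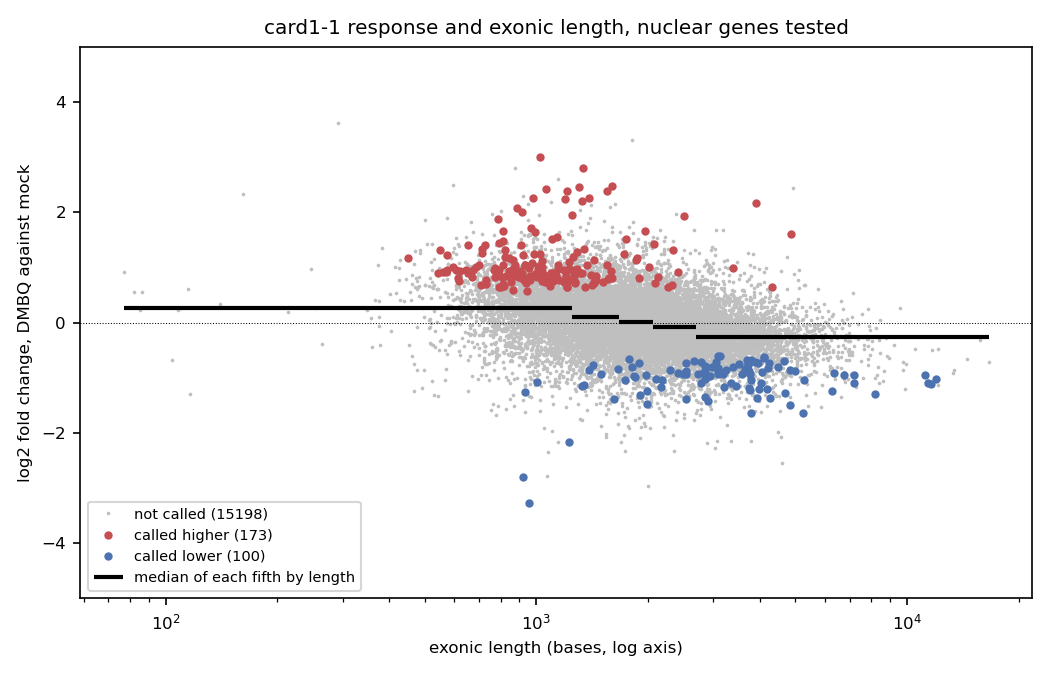
Log2 fold change of DMBQ against mock in card1-1 (linear axis) against exonic length in bases (log axis) for the nuclear genes tested, 1 point a gene, with 173 called higher in red, 100 called lower in blue and the rest in grey; black lines mark the median of each quintile by length. Red points gather at short and blue points at long transcripts, and the medians fall from 0.27 to −0.25.

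Ribosomal protein genes were 51 of the 182 risers. They were singled out after their values were seen, by the words ribosomal protein or ribosomal L in the RefSeq product name, leaving out enzymes that modify them. Of 330 tested genes 51 rose and 1 fell, 272 lay above 0, and the median log2 fold change was 0.45, against 0.04 in WT and 0.31 in card1-2. Of the 330, 250 belonged to the shortest quintile of transcripts. With the offsets the median was 0.21, and 3 were called, of which 1 rose (AT4G14320, 0.99) and 2 fell (PSRP3/1, −1.49, and AT2G44860, −0.99). AT4G14320, a ribosomal protein gene picked after its values were seen, had 151, 167, 189.6 and 257 CPM in mock replicates 1 to 4 and 584, 384, 462 and 372 CPM in DMBQ replicates 1 to 4. Its groups did not overlap, and it rose by 1.24 (SE 0.20, edgeR adjusted p = 0.00732), a call that held in all 8 fits that left out 1 library and with the offsets. RPS13A, picked in the same way, rose by 1.08. Many ribosomal proteins have near-identical gene copies between which reads can be tallied as not unique, so single values in this family are uncertain.

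Nuclear photosystem genes mostly lay above 0. Of 39 nuclear photosystem genes 4 rose, 33 lay above 0, 22 did so without overlap between the groups, and the median was 0.45. Over all genes tested 1.17% rose, 5.55% were higher without overlap and 7782 of 15559 lay above 0. The list's median exonic length was 1223 bases, and the shortest quintile of nuclear genes (77 to 1250 bases) had a median log2 fold change of 0.27. The list median was 0.13 in WT and 0.30 in card1-2. LHCB6, an antenna protein of photosystem II, rose from 415 ± 96.7 to 749 ± 78.9 CPM (log2 fold change 0.85, edgeR adjusted p = 0.0227; held in 4 of 8, adjusted p = 0.0984 without DMBQ replicate 1). PSBW and PSBP1 of photosystem II rose by 0.78 and 0.65, and PSAO of photosystem I by 0.66 (held in 4, 1 and 3 of 8). None of the 4 passed with the length and GC offsets, under which the list median was 0.25, and between 0 and 6 of the 39 were called when 1 library was left out. The summed photosystem level ran from 34623 to 38803 CPM in mock and from 41115 to 46831 CPM in DMBQ, and that of the root markers from 285 to 950.1 CPM and from 159 to 262 CPM. In whole seedlings, fewer cells of a type and less RNA per cell cannot be told apart.

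In the Calvin cycle 3 of 8 genes rose and 1 fell, with a median of 0.23. The risers encode the small subunit of Rubisco: RBCS1A rose by 0.72, RBCS1B by 0.81 and RBCS3B by 0.69. Their calls held in 1, 1 and 0 of 8 fits without 1 library (RBCS1B: adjusted p = 0.166 without DMBQ replicate 1), and as near-identical copies they can share reads. PRK, the phosphoribulokinase, had 685, 542, 654 and 522 CPM in mock replicates 1 to 4 and 376, 405, 367 and 306 CPM in DMBQ replicates 1 to 4. All 4 DMBQ libraries lay below the mock group, and PRK fell by 0.72 on the log2 scale (edgeR adjusted p = 0.0265; held in 3 of 8, adjusted p = 0.0879 without DMBQ replicate 1).

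Transcripts of the organelle genomes, which are given here by AGI code alone, moved in both directions. Of 73 plastid genome genes tested 8 rose and 6 fell, with 50 above 0 and a median of 0.67. ATCG00140 had 10.4, 22.8, 61.9 and 29.9 CPM in mock replicates 1 to 4 and 484, 354, 416 and 470.0 CPM in DMBQ replicates 1 to 4. The 4 DMBQ libraries were far above any mock library, and the rise of 3.81 was the largest of all genes tested (SE 0.46, edgeR adjusted p = 0.011; held in 8 of 8). ATCG00560 rose by 2.39 and ATCG00150 by 2.21, both held in 8 of 8, and ATCG00130 by 2.52 (held in 2 of 8, adjusted p = 0.103 without DMBQ replicate 1). ATCG00810 fell by 2.69, ATCG01120 by 2.21, ATCG00820 by 2.11 and ATCG00800 by 1.98 on the log2 scale, with calls held in 5, 3, 3 and 2 of 8. All 4 fallers were highest in mock replicate 2.

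The plastid genome held 0.726% ± 0.350 (SD, n = 4) of gene counts in mock and 1.04% ± 0.387 in DMBQ, which overlapped (exact permutation p = 0.286). The mitochondrial genome held 0.0938% ± 0.0612 and 0.484% ± 0.290 without overlap (exact permutation p = 0.0286, 0.0714 after adjustment over 5 measures). Of 7 mitochondrial genome genes tested 1 rose, ATMG01380 (named after its value was seen) at 1.75 (adjusted p = 0.0214), and all 7 lay above 0 (median 1.75). Among the DMBQ libraries replicate 4 had the highest share of alignments not unique (66.5%), of plastid counts (1.55%) and of mitochondrial counts (0.892%). Leaving out 1 library gave 5 to 17 plastid risers and 0 to 7 plastid fallers.

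Cellulose synthesis genes were among the fallers. Of 11 cellulose synthesis genes 4 fell, none rose, 3 lay above 0 and the median was −0.49. CESA1, a catalytic subunit of the primary wall cellulose synthase, had 352, 408, 412 and 319 CPM in mock replicates 1 to 4 and 199, 223, 211 and 206 CPM in DMBQ replicates 1 to 4. Every DMBQ library lay below every mock library with little spread within the groups. CESA1 fell by 0.83 on the log2 scale (SE 0.15, edgeR adjusted p = 0.0122; held in 6 of 8, adjusted p = 0.0632 without DMBQ replicate 1). CSI1, which links cellulose synthase complexes to microtubules, fell by 1.103 (held in 7 of 8, adjusted p = 0.069 without DMBQ replicate 1), the endoglucanase gene KOR1 by 0.73 and CESA2 by 0.73 (each lost in all 8; adjusted p = 0.121 without DMBQ replicate 1 and 0.126 for CESA2 without the same library). The list's median exonic length was 3825 bases; with the length and GC offsets its median was −0.39 and none of the 4 passed. The log2 fold changes of CESA1 were −0.14 in WT and −0.68 in card1-2. CSLD5, a cellulose synthase-like protein of dividing cells, fell by 1.37 (held in 3 of 8, adjusted p = 0.0859 without mock replicate 3), and the callose synthase gene GSL8, picked after its values were seen, had a log2 fold change of −1.24, held in 8 of 8 but lost with the offsets.

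MRL1 (AT4G34830, chr4:16599597-16606135, minus strand), a pentatricopeptide repeat protein that stabilises the plastid transcript of the large Rubisco subunit, had 272, 234, 224 and 173 CPM in mock replicates 1 to 4 and 77.2, 61.6, 80.1 and 69.5 CPM in DMBQ replicates 1 to 4. The highest DMBQ library was below the lowest mock library by more than the SD of either group. Its mean went from 226 ± 41.0 to 72.1 ± 8.29 CPM (SD, n = 4), a log2 fold change of −1.65 (SE 0.18, edgeR adjusted p = 0.000329), held in 8 of 8, and with the offsets it was −1.37. AT2G44210, a DUF239 peptidase-like gene, fell from 69.9 ± 4.89 to 25.3 ± 6.60 CPM (−1.47, adjusted p = 0.00732), held in 8 of 8 (adjusted p = 0.0487 without DMBQ replicate 3 at the highest). PREP1, which degrades targeting peptides in mitochondria and plastids and was picked after its values were seen, went from 248 ± 37.1 to 106 ± 30.8 CPM (−1.23, adjusted p = 0.0121; held in 8 of 8). Another pentatricopeptide repeat gene, AT3G04760, fell by 1.39 (held in 4 of 8, adjusted p = 0.0696 without DMBQ replicate 1). By product name 159 pentatricopeptide genes were tested, a set chosen after seeing values; 4 fell, none rose and the median was −0.21.

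Other fallers were named by the rule. XIH, a myosin of class XI, fell by 1.64 (held in 4 of 8, adjusted p = 0.0862 without mock replicate 2), the formin gene AFH14 by 1.49 (held in 3 of 8, adjusted p = 0.0984 without DMBQ replicate 1), and PI-4KBETA2, a phosphatidylinositol 4-kinase, by 1.36 (held in 0 of 8, adjusted p = 0.128 without mock replicate 2). None of these 3 passed with the length and GC offsets. MYB4R1 (−1.42) lost its call in all 8 fits without 1 library (adjusted p = 0.103 without DMBQ replicate 1), and AT3G18050, which encodes a GPI-anchored protein, had −1.38 (held in 6 of 8, adjusted p = 0.0709 without DMBQ replicate 1). Long transcripts that fell, picked after seeing their values, included UPL2 and UPL1, HECT ubiquitin ligases, at −1.12 and −1.096, the TOR kinase gene at −1.30 and the chromatin remodeller gene SYD at −0.94. Their exonic lengths were 11639, 11404, 8200 and 11171 bases, and their calls held in 8, 5, 1 and 3 of 8 fits without 1 library. None of the 4 was called with the length and GC offsets. Of 6 UPL genes tested, 2 fell, 0 rose and 3 lay above 0, with a median log2 fold change of −0.04.

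Among nuclear genes called lower, the 3 with the largest fold changes were highest in mock replicate 1. AT2G39530, of a protein family without assigned function, had 24.4, 9.82, 4.82 and 8.78 CPM in mock replicates 1 to 4 and 1.86, 0.406, 0.409 and 2.21 CPM in DMBQ replicates 1 to 4. TED7, a gene of xylem vessel differentiation, had 109, 39.0, 15.9 and 44.7 CPM in mock replicates 1 to 4 and 9.28, 9.33, 6.13 and 5.31 CPM in DMBQ replicates 1 to 4. PRP3, a proline-rich wall protein of root hairs and the only faller of 9 tested root markers, had 299, 131, 103 and 94.4 CPM in mock replicates 1 to 4 and 30.8, 49.9, 29.4 and 30.1 CPM in DMBQ replicates 1 to 4. In each, mock replicate 1 stood above all other libraries, and the groups did not overlap. Their log2 fold changes were −3.26, −2.79 and −2.16 (edgeR adjusted p = 0.0282, 0.0122 and 0.0122). Without mock replicate 1 AT2G39530 had −2.65 and lost its call (adjusted p = 0.134), which held in 3 of 8 such fits; TED7 and PRP3 kept theirs there (−2.15 and −1.65) and lost them without DMBQ replicate 1 (adjusted p = 0.0709 for both) and replicate 3 (0.0582 and 0.0518), TED7 also without replicate 4 (0.0534). The summed root markers were 950.1 CPM in mock replicate 1 and 285 to 372 CPM in the other mock libraries, and their part in these falls was not tested. None of the 3 had a log2 fold change beyond −0.32 in WT.

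The difference of the DMBQ response between card1-1 and WT was tested in the fit of 24 libraries, in which 629 genes were higher in card1-1 DMBQ than mock (3.55%) and 560 lower (3.16%), with 20.3% at an unadjusted p under 0.05. Of 17734 genes, the signed log2 fold change was lower than in WT for 9 (0.0507%) and higher for 1 (0.00564%) at the same threshold. An unadjusted p under 0.05 was seen for 1669 (9.41%). A lower value need not be a weaker response: MRL1, 1 of the 9, had −1.66 in card1-1 and −0.32 in WT. SOBIR1 (AT2G31880, chr2:13554870-13556977, plus strand), a receptor kinase that partners immune receptor-like proteins, had 97.2, 61.2, 70.5 and 51.1 CPM in card1-1 mock replicates 1 to 4 and 44.2, 27.8, 37.9 and 43.2 CPM in card1-1 DMBQ. In WT it had 32.3, 33.4, 37.2 and 51.0 CPM in mock and 154, 105, 114 and 144 CPM in DMBQ. All 4 treated libraries lay above mock in WT and below it in card1-1, where the log2 fold change in this fit was −0.87 (adjusted p = 0.00974). The difference of responses was −2.62 (SE 0.30, edgeR adjusted p = 1.33e-06) and was called in all 26 alternatives. The non-unique share was 21.3% to 29.0% in WT mock and 29.7% to 41.8% in WT DMBQ, below all 4 card1-1 DMBQ libraries. In the fit of card1-1 alone the fall of SOBIR1 did not pass (−0.86, adjusted p = 0.0759). That fit takes its spread from card1-1, whereas the 24-library fit shares 1 estimate over all groups. The coefficient of variation between replicates was 25.32% in card1-1 mock and 30.02% in card1-1 DMBQ. It was 19.53% and 20.8% in WT, and 17.35% and 30.78% in card1-2.

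AT1G18740, a DUF793 gene, had 85.1, 73.3, 66.0 and 63.5 CPM in card1-1 mock replicates 1 to 4 and 63.3, 24.2, 73.4 and 75.4 CPM in DMBQ, against 72.8, 70.2, 60.3 and 51.0 and 185, 172, 149 and 146 CPM in WT. The card1-1 groups overlapped, with DMBQ replicate 2 low, whereas those of WT were apart. Its difference was −1.64 (SE 0.29, edgeR adjusted p = 0.00652), also called in all 26 alternatives. WRKY22, a factor of flagellin-triggered immunity, had 139, 115, 132 and 107 CPM in card1-1 mock and 57.4, 76.2, 105 and 86.4 CPM in DMBQ, without overlap. Its log2 fold change was −0.60 in card1-1 and 0.82 in WT, a difference of −1.42 (adjusted p = 0.00652). WRKY22, MRL1 (−1.34) and AT4G20830, of the FAD-binding berberine family (−1.31), lost their calls only when the non-unique share entered as a covariate (adjusted p = 0.123, 0.0503 and 0.123). Their differences there were −1.27, −1.52 and −1.29.

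The other genes with a negative difference lay outside the naming rule and were picked after their values were seen. CYP707A3, which encodes an enzyme that breaks down abscisic acid, had −2.65, AT3G28580 −2.16, the calmodulin-binding protein gene CAMBP25 −1.56 and AT1G74450, another DUF793 gene, −1.34. The plastid gene ATCG00150 had the higher response, with a difference of 2.52; its call was lost with the covariate (adjusted p = 0.162). In card1-1 mock against WT mock none of the 10 passed, and no gene at all did (694 genes had an unadjusted p under 0.05, 3.91%). Their mock levels still differed in size: the log2 difference of card1-1 mock from WT mock was 1.31 for CYP707A3, 0.87 for SOBIR1, 0.65 for WRKY22 and 0.62 for CAMBP25, and between −0.13 and 0.33 for the other 6.

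**Figure D5:**
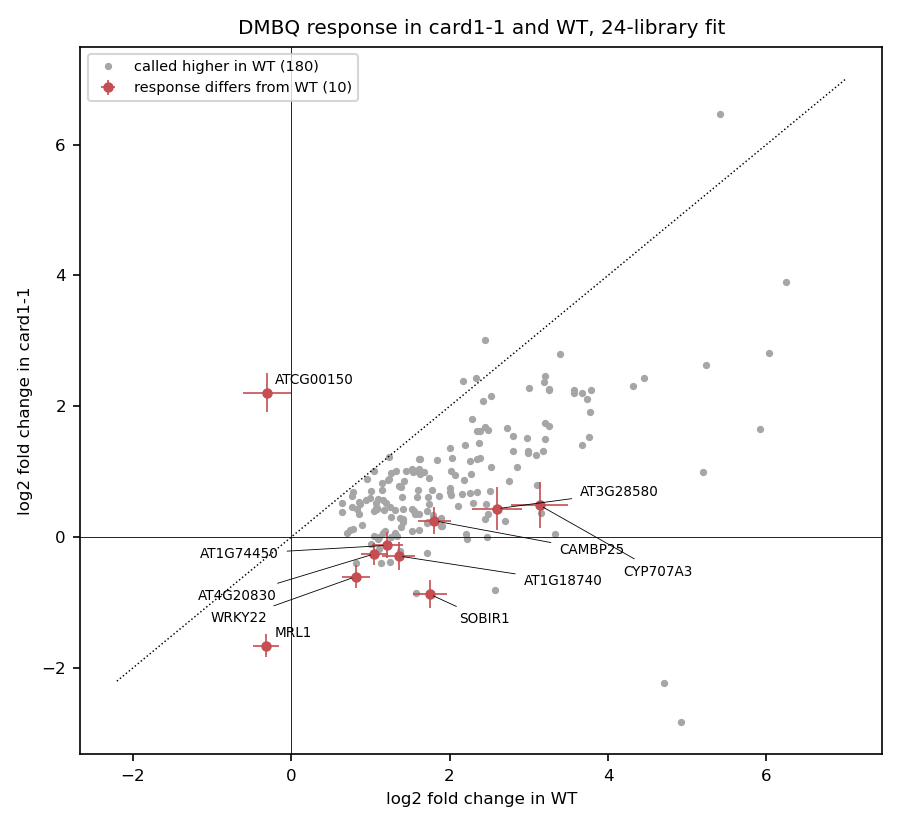
Log2 fold change of DMBQ against mock in card1-1 (vertical axis) against that in WT (horizontal axis), both from the 24-library fit; grey points are the 180 genes called higher in WT, red points with bars of 1 SE are the 10 genes whose response differed, and the dotted line marks equal responses. SOBIR1 lies at 1.75 in WT and −0.87 in card1-1, and ATCG00150 and MRL1 lie apart from the genes raised in WT; the grey genes were chosen for their rise in WT, which favours WT.

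Set beside the other mutant, edgeR called no difference in response between card1-1 and card1-2, although 1653 genes (9.32%) had an unadjusted p under 0.05 and DESeq2 called 45. SOBIR1 had a log2 fold change of 0.53 in card1-2 and a difference of −1.40 between the alleles (adjusted p = 0.109). Of the 10 genes whose response differed from WT, AT3G28580 (1.995), CAMBP25 (1.345), CYP707A3 (1.331), AT1G18740 (0.98) and AT1G74450 (0.75) were called higher in card1-2. In WT these genes had 2.595, 1.806, 3.137, 1.356 and 1.215, and the difference between card1-2 and WT was not tested. ATCG00150 was also called higher in card1-2, whereas SOBIR1, WRKY22 (0.13) and AT4G20830 (0.52) did not pass there. Of the 106 fallers of card1-1, 38 were called lower in card1-2, where 200 of 17734 genes fell (1.13%). None was called lower in WT, where only 2 of 17734 genes fell (0.0113%). In WT 12 of the 106 lay above 0, and their median log2 fold change was −0.19. The response difference from WT was called for 1 of them. The non-unique share in card1-2 was 33.6% to 41.2% in mock and 31.9% to 61.1% in DMBQ, and its part in these shared falls was not tested. CESA1 and MRL1 were among the 38 (−0.68 and −1.16 in card1-2).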

How the data were processed

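RNA sequencing libraries of whole seedlings were made as in Townsley et al., per the labels' protocols, and grouped by genotype and agent as the labels give them. The authors deposited 1 table of raw counts per gene, all whole numbers, handled as estimated counts because 1 of its tally lines holds percentages. The submitters' processing notes name CASAVA, bcl2fastq 2.17, TopHat, TopHat2 2.1.1, HTSeq 0.6.1 and build TAIR10, without their roles; settings for strand and for reads aligned more than once are unknown here (not given in the sources used), so overlapping and antisense genes cannot be told apart. The table holds 33602 genes, of which 32835 matched the RefSeq TAIR10.1 annotation, and 9 lines that name no gene, left out of library sizes and tests. Their largest share, alignments not unique, was 17.3% to 66.5% in the card1-1 libraries.

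Counts as deposited entered edgeR 4.0.16 (R 4.3.3) with filterByExpr (minimum count 10, minimum total 15), TMM scaling and robust quasi-likelihood tests on the 8 card1-1 libraries, with Benjamini-Hochberg adjustment over 15559 genes and a threshold of 0.05. Responses were compared between genotypes in 1 fit of 24 libraries (17734 genes). Alternatives were DESeq2 1.42.0, limma voom 3.58.1, other scalings and filters, GC and length offsets (mgcv 1.9.3), a replicate block, a covariate and leaving out each library; leaving out the 2 DMBQ libraries above 55% not unique was chosen after seeing the data. Scripts were tested on simulated data. Named genes are CARD1, the 12 largest rises and 12 largest falls among called nuclear genes without overlap and with a mean of at least 5 CPM, 4 each for the organelle genomes, up to 4 called members per list and direction, and the 5 response differences per direction with the smallest p. The members and lists were chosen with earlier results of these data known. Depth was 2328009 to 4918390 gene counts per library, and PCR duplicates cannot be told from separate molecules.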

Additional observations from a re-analysis of the deposited data

Results flagged for a closer look

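In 6 of 120 groups of 4 libraries (5.0%), 1 library lay far from the other 3. Chance alone flags about 1 group in 20 where groups are independent, which these are not, since they share the same libraries. CARD1 was 93.5 CPM in card1-1 DMBQ replicate 1, far above the other DMBQ libraries. PRP3 was 49.9 CPM in DMBQ replicate 2. In mock replicate 1, AFH14 was 135 CPM and LHCB6 270 CPM. In mock replicate 2, the plastid genes ATCG00810 and ATCG01120 were 238 and 156 CPM.

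Because the test of the difference itself passed, 10 genes are given whose DMBQ response differed between card1-1 and WT (log2, card1-1 minus WT). SOBIR1 was −2.62, CYP707A3 −2.65, AT3G28580 −2.16, AT1G18740 −1.64, CAMBP25 −1.56, WRKY22 −1.42, MRL1 −1.34, AT1G74450 −1.34 and AT4G20830 −1.31, while ATCG00150 was 2.52.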

How the results depend on the processing

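The 288 genes called in card1-1 (182 higher, 106 lower) became 792 with DESeq2 (470 and 322), 54 with GC and length offsets (32 and 22), 1189 in the fit of 24 libraries (629 and 560) and 0 with the non-unique share as covariate (982 at an unadjusted p under 0.05), a share that separates the groups completely. Without a filter on low counts 167 fell. Leaving out 1 library gave 23 to 274 genes called, 16 to 184 higher and 7 to 90 lower. Without the 2 DMBQ libraries above 55% not unique, 2 rose (RDUF1 and ATCG00140) and 0 fell. With a replicate block 412 were called (175 lower), and with block and offsets 129 (65 and 64). Deviations of same-numbered libraries correlated at 0.0122, 0.142, 0.133 and −0.00885. The values 0.142 and 0.133 were the highest of all mock and DMBQ pairs, but not every library correlated best with its own number. These correlations do not settle whether same-numbered samples were paired.

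The 10 response differences from WT became 99 with DESeq2, 16 without the filter, 58 with the replicate block, 38 with block and offsets, 2 with the covariate (SOBIR1 and AT1G18740) and 7 to 39 without 1 library, with 39 lacking card1-1 mock replicate 4 and 7 lacking WT mock replicate 3. The 0 differences from card1-2 became 45, 4, 2 and 17 under the first 4 of these, and 0 to 12 without 1 library. Under the covariate ATCG00130 turned to −0.66 and TED7 to 0.67; the cause was not tested. The other 49 of 51 called genes named by the rule with a value there kept their direction, 16 with a log2 value at least as large (MKK9 2.50, CYCP3;2 3.97), 19 with a log2 value under 0.5 of the reported one (XIH −0.05) and the rest between (ERF5 2.05, WRKY40 1.83, MRL1 −1.44). Depth, 2328009 counts in the shallowest library, limits what can be called among low genes.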
